A study of Populus ussuriensis with 8 samples.

Results

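Treatment with methyl jasmonate (MeJA), a volatile ester that plants make from jasmonic acid, was compared with no treatment 1 h after cutting in the basal ends of stem cuttings of the poplar Populus ussuriensis. The libraries were chosen by the treatment and time in their labels, and they are 4 of the 8 libraries of the series, the other 4 being of 0.5 h. MeJA 1 h held 2 libraries of cuttings placed on medium with 1 µM MeJA, and untreated 1 h held 2 libraries of cuttings placed on the same medium without it. All came from in vitro plants, the medium was diluted Murashige and Skoog medium with sucrose, and RNA was taken from the lowest 0.5 cm of the cuttings. The labels give no genotype or clone. The labels disagree on the age of the plants and do not say whether replicates were separate cultures or how many cuttings were pooled, so the tests measure only how these libraries vary, and that variation may be technical.

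In plants, jasmonate is made within minutes to hours of wounding, and cutting a stem is itself a wound. The active form, a conjugate with isoleucine, joins the receptor COI1 to the JAZ repressors, which are then degraded, and this frees MYC2 and related transcription factors to act on defence and wound genes and on the JAZ genes themselves. Jasmonate also takes part in the early steps of adventitious rooting at the base of cuttings, as known mainly from Arabidopsis and petunia. The files list Potri identifiers without names or descriptions, so no gene below is given a function, the jasmonate genes could not be picked out, and the labelled tissue could not be compared with marker genes.

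Each library listed transcripts of 36385 genes on chromosomes 1 to 17, and all lists end at the same transcript within chromosome 17. Genes beyond it were not analysed here, so gene totals, summed FPKM and chromosome counts cover the listed genes only. Values were taken to be FPKM (fragments mapped, scaled to transcript length and library size), since no label or header gives the unit, and TPM, a related unit, cannot be told apart from it in lists that end early. They were summed per gene and tested as log2(FPKM + 1), the scale of all log2 differences below, which understates changes of genes with low values. Of the genes listed, 23060 reached 1 FPKM in at least 2 of the 4 libraries and were tested, and 13325 did not. Absolute depth is unknown, but the step between low values of single-isoform genes put the other 3 libraries at 0.94 to 0.973 times the depth of untreated replicate 1. Between 22555 and 22868 genes per library reached 1 FPKM.

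The comparison asks which genes stand at other levels with MeJA than without it at 1 h. By limma, 0 of 23060 genes (0%) passed an adjusted p of 0.05, the lowest value being 0.144. An unadjusted p under 0.05 was reached by 1593 genes (6.91%), of which 961 (4.17%) were higher and 632 (2.74%) lower with MeJA. Higher genes made up 60.3% of these as deposited, 50.7% after quantile normalization and 45.6% after centring each library on its median, so the balance of directions depended on the scaling. Both MeJA libraries lay above both untreated libraries for 4674 genes (20.3%) and below both for 3613 (15.7%), and the groups overlapped for the rest. With 2 libraries per group many genes separate in this way by order alone, so these shares do not measure an effect of MeJA.

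**Figure D1:**
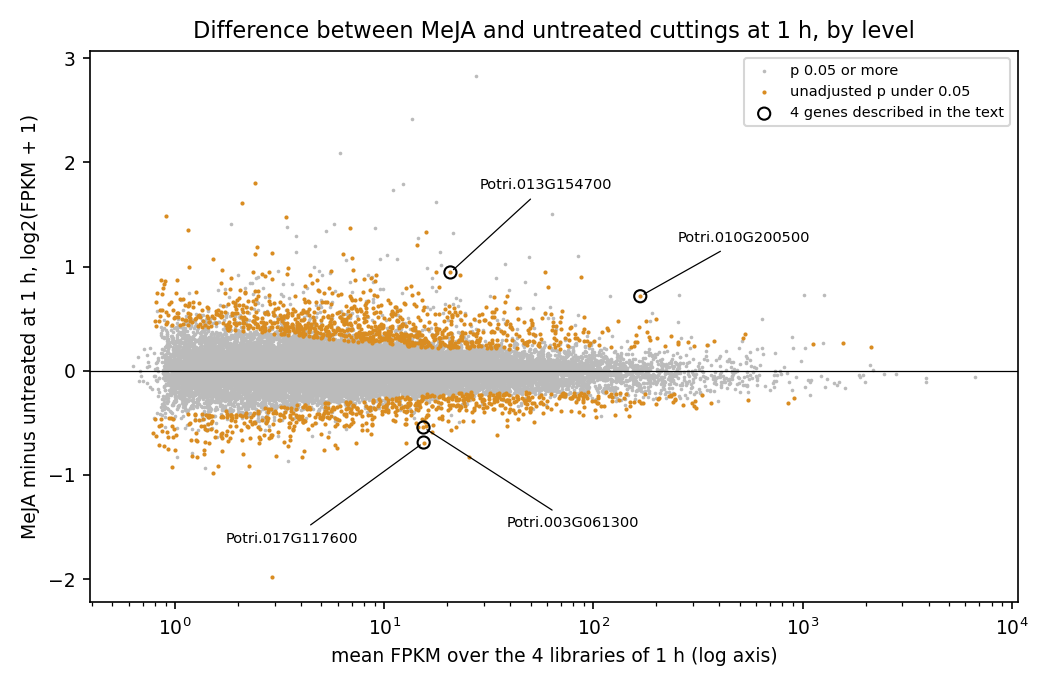
Each point is 1 of the 23060 genes tested, with its mean FPKM over the 4 libraries of 1 h on a log axis and the MeJA minus untreated difference in log2(FPKM + 1) on the other. Orange points have an unadjusted p under 0.05, none passed an adjusted p of 0.05, and several of the highest points are grey, among them Potri.009G140400 with 107 and 0.718 FPKM in its MeJA libraries.

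The precision of the comparison followed the level of a gene. The median absolute log2 difference was 0.103 over all genes tested, and the median standard error was 0.138. Such a median lies below the standard error even where no gene differs, so their order says nothing of an effect. For 97% of genes the 95% confidence interval stayed within 1 of no difference on the log2(FPKM + 1) scale, up or down. This share was 93.3% among the 3186 genes with a mean under 2 FPKM and 98.2% among the 2124 genes at 50 FPKM or more. A step of 1 is 2-fold in FPKM + 1, so at low levels FPKM itself can change by more within it. In the abundant class the median standard error was 0.0963, and 98% of its genes had log2 differences between -0.33 and 0.51. Among genes of 5 to 20 FPKM, 66.5% of those with an unadjusted p under 0.05 were higher with MeJA, against 46.8% of those at 50 FPKM or more.

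The genes of smallest p were taken, 2 in each direction, among those that averaged 5 FPKM or more and whose groups did not overlap. This choice favours genes with close replicates at 1 h. Potri.010G200500, on chromosome 10, had 203 and 213 FPKM in MeJA cuttings, against 123 and 130 FPKM in untreated cuttings. The MeJA libraries lay above both untreated libraries, by log2 0.72 ± 0.09 (SE), with limma adjusted p = 0.144. At 0.5 h the gene was higher in every library, with 323 and 311 FPKM in MeJA cuttings, against 337 and 369 FPKM in untreated cuttings. The MeJA difference was thus positive at 1 h and negative at 0.5 h, and the test of that change did not pass (log2 0.87 ± 0.15 SE, limma adjusted p = 0.205).

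Potri.013G154700, on chromosome 13, had 27.9 and 27.1 FPKM in MeJA cuttings, against 12.4 and 15.4 FPKM in untreated cuttings. Both MeJA libraries lay well above the untreated ones, by 0.94 ± 0.12 on the log2 scale (SE; limma adjusted p = 0.144). At 0.5 h it had 24.6 and 8.02 FPKM in MeJA cuttings, against 31.5 and 33.6 FPKM in untreated cuttings. The spread between its MeJA replicates at 0.5 h was therefore larger than the difference between the groups at 1 h.

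Potri.017G117600, on chromosome 17, had 12.2 and 11 FPKM in MeJA cuttings, against 19.1 and 19.4 FPKM in untreated cuttings, and MeJA was lower by log2 -0.69 ± 0.1 (SE), with limma adjusted p = 0.264. Potri.003G061300, on chromosome 3, had 12.9 and 11.8 FPKM in MeJA cuttings against 18.5 and 18.4 FPKM in untreated cuttings, a difference of log2 -0.54 ± 0.1 (SE), with limma adjusted p = 0.301. By the choice, neither gene's groups overlapped at 1 h. At 0.5 h, Potri.017G117600 had 10.2 and 13.7 FPKM in MeJA cuttings, against 8.8 and 6.17 FPKM in untreated cuttings, so that the MeJA libraries were the higher ones then (limma adjusted p = 0.205 for the change of the difference). At 0.5 h, Potri.003G061300 had 28.4 and 27 FPKM in MeJA cuttings, between the 23.2 and 31.7 FPKM of untreated cuttings.

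**Figure D2:**
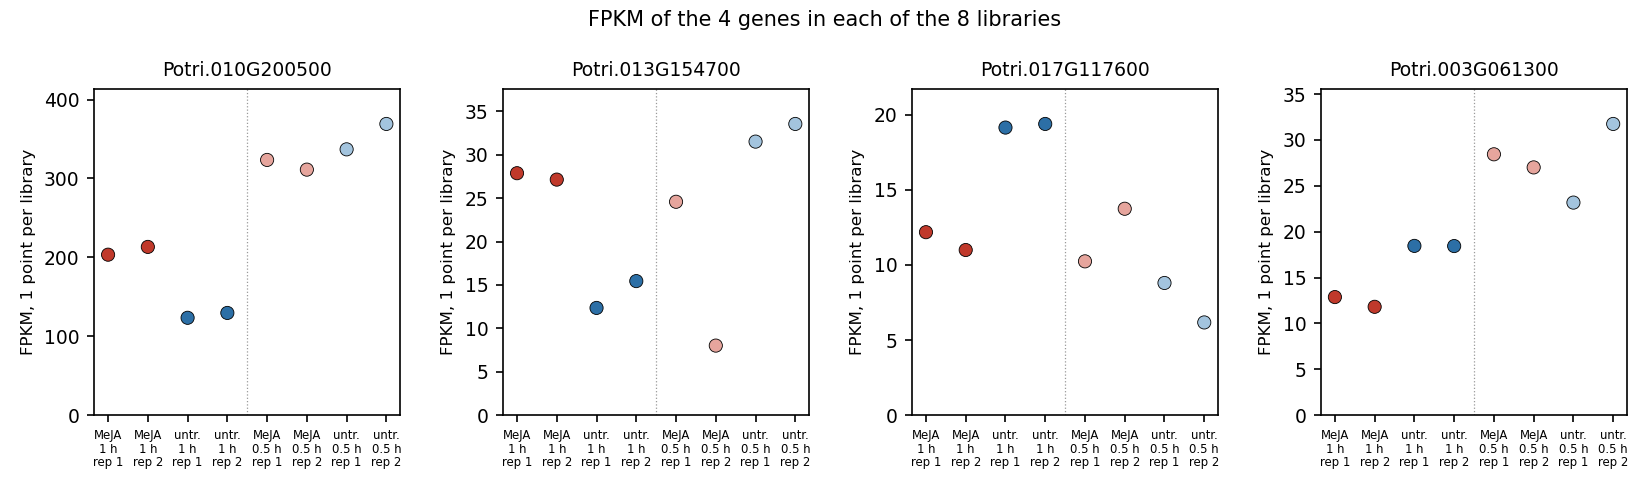
FPKM of the 4 genes, 1 point per library, with MeJA in red, untreated in blue, and the libraries of 1 h left of the dotted line and those of 0.5 h right of it. At 1 h the MeJA points of each gene lie on one side of the untreated points, as the choice required. For Potri.013G154700 the MeJA replicates of 0.5 h are at 24.6 and 8.02 FPKM.

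A gap of at least 1 on the log2 scale between the lowest library of one group and the highest of the other was found for 4 genes higher with MeJA (0.0173%) and 1 gene lower (0.00434%). These 5 genes were singled out after their values were seen, and all have 1 isoform and low levels. Potri.006G137800 had 3.82 and 4.79 FPKM in MeJA cuttings, against 0.711 and 0.336 FPKM in untreated cuttings (limma adjusted p = 0.144). Potri.003G059800 had 3.06 and 4.29 FPKM in MeJA cuttings, against 0.431 and 0.611 FPKM in untreated cuttings (limma adjusted p = 0.144). Both were low in the untreated libraries of 1 h and several times higher in both MeJA libraries.

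Potri.003G066700 had 3.87 and 7.13 FPKM in MeJA cuttings, against 1.3 and 1.23 FPKM in untreated cuttings (limma adjusted p = 0.292). Potri.002G203300 had 1.6 and 2.03 FPKM in MeJA cuttings and was listed at 0 in both untreated libraries (limma adjusted p = 0.147). It was the only gene at 0 in both untreated libraries and at 1 FPKM or more in both MeJA libraries, and no gene (0) showed the reverse. Potri.001G076300 had 0.343 and 0.714 FPKM in MeJA cuttings, against 7.02 and 3.48 FPKM in untreated cuttings, which is log2 -1.98 ± 0.29 (SE), with limma adjusted p = 0.292. With 1 library left out in turn, the limma adjusted p of the 4 higher genes lay between 0.00824 and 0.849, and that of Potri.001G076300 between 0.0463 and 0.674.

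At 0.5 h, in libraries that took no part in this choice, some of these genes differed widely between replicates, by more than the MeJA difference of 1 h in Potri.006G137800 and by less in the other 4. Potri.006G137800 had 9.56 and 0.491 FPKM in MeJA cuttings of 0.5 h, against 4.35 and 9.66 FPKM in untreated cuttings of 0.5 h. Potri.003G059800 had 3.66 and 0.745 FPKM in MeJA cuttings of 0.5 h, against 2.59 and 4.04 FPKM in untreated cuttings of 0.5 h. In both genes MeJA 0.5 h replicate 2 was the lowest of the 4 libraries of that time, near the untreated level of 1 h. Potri.003G066700 was also lowest in that library, at 0.899 FPKM, against 2.17 to 5.71 FPKM in the other 3 libraries of 0.5 h. Potri.001G076300 had 3.88 and 0.604 FPKM in MeJA cuttings of 0.5 h, against 1.64 and 0.347 FPKM in untreated cuttings of 0.5 h.

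A gap of at least 0.5 on the log2 scale was present in 69 genes higher with MeJA (0.299%) and 22 lower (0.0954%). The 69 higher genes differed by 0.56 to 1.81, with a median of 0.80, and the 22 lower genes had a median of -0.76. Of the 69, 32 had a mean of at least 5 FPKM, and of the 22, 3 did. At 0.5 h, where no library is shared with this choice, MeJA was above untreated for 17 of the 69 genes (24.6%), against 43.1% of all genes tested, and the 69 had a median log2 difference of -0.22 then. Replicate 1 lay above replicate 2 in MeJA 0.5 h for 49 of the 69 (71%), against 51.4% of all genes tested, and replicate 2 lay above replicate 1 in untreated 0.5 h for 56 (81.2%), against 48.6%. For 19 of the 69 the difference between replicates of one group at 0.5 h was at least as large as the MeJA difference at 1 h, against 17974 of all 23060 genes tested, most of which have small differences at 1 h.

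How far the comparison rested on single libraries was then measured. The MeJA libraries differed from each other by at least 1 on the log2 scale in 218 genes, of which 168 (0.729%) were higher in replicate 1 and 50 (0.217%) in replicate 2. The untreated libraries differed by as much in 78 genes, 23 (0.0997%) higher in replicate 1 and 55 (0.239%) in replicate 2. These counts depended on low values, with 543 genes between the MeJA libraries and 353 between the untreated libraries at a pseudocount of 0.1, and 115 and 21 among genes that averaged 5 FPKM or more. MeJA replicate 1 had a Spearman correlation of 0.981 with MeJA replicate 2 and of 0.982 with untreated replicate 2, across genes, and its lowest was 0.979 with untreated replicate 1. MeJA replicate 2 correlated more closely with the untreated libraries, at 0.985 and 0.984. The first principal component, with 42.5% of the variance, placed MeJA replicate 1 at 28.7 and the other 3 libraries between -13.6 and -7.54. Components 2 and 3, the only others that 4 libraries give, held 30.3% and 27.1%. Component 1 was thus the largest but did not dominate the variance.

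**Figure D3:**
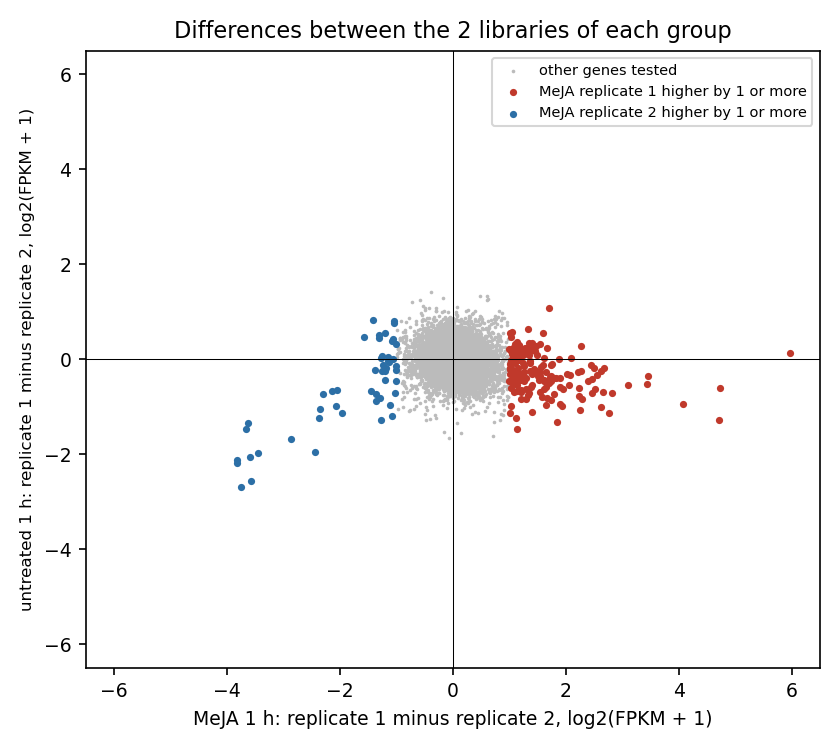
Each point is 1 gene, with the difference between the MeJA libraries of 1 h (replicate 1 minus replicate 2) against the difference between the untreated libraries, both in log2(FPKM + 1). The 168 red genes reach far to the right, with a median absolute untreated difference of 0.35 and 10 of them at 1 or more, while the leftmost of the 50 blue genes also lie low on the untreated axis, that is, they differ between replicates in both groups.

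The 168 genes higher in MeJA replicate 1 had a median log2 level of 3.74 in that library and 1.89 in MeJA replicate 2, against 2.18 and 2.45 in the untreated libraries. MeJA replicate 1 exceeded both untreated libraries in 163 of them and MeJA replicate 2 in 22, against 8815 and 7894 of all 23060 genes tested. MeJA replicate 2 lay below both untreated libraries in 87 of them, against 7302 of all genes tested. Together they held 0.932% of the summed FPKM in MeJA replicate 1 and 0.304% in MeJA replicate 2, against 0.313% and 0.397% in untreated cuttings. Relative to untreated cuttings their median was log2 1.23 in MeJA replicate 1 and -0.23 in MeJA replicate 2. The choice of these genes favoured high values in MeJA replicate 1 and low values in MeJA replicate 2.

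Potri.009G140400, on chromosome 9, the widest of these differences, had 107 FPKM in MeJA replicate 1 and 0.718 FPKM in MeJA replicate 2, against 1 and 0.839 FPKM in untreated cuttings. It stayed between 0.196 and 0.755 FPKM in the 4 libraries of 0.5 h. Potri.008G106400, on chromosome 8, had 51.6 and 0.972 FPKM in MeJA cuttings, against 0.556 and 1.35 FPKM in untreated cuttings. Each was abundant in 1 library of the 8 and close to 1 FPKM or lower in the other 7. Their group differences were log2 2.83 ± 2.9 and 2.41 ± 2.3 (SE), with limma adjusted p = 0.955 and 0.95.

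In the untreated libraries, 103 of the 168 genes (61.3%) were higher in both libraries of 1 h than in both of 0.5 h, against 26.1% of all genes tested. The untreated libraries of 1 h entered the choice through the minimum of 1 FPKM, since 23 of the 168 reached it only with an untreated library. Among the 145 with both MeJA libraries at the minimum, a setting added after seeing the data, the count was 85 (58.6%), against 26% of all genes passing in that way. Untreated replicate 2 of 1 h lay above replicate 1 in 125 of the 168 (74.4%), against 43.5% of all genes tested, by a median of 0.33 on the log2 scale. Genes with a single isoform made up 76.2% of the 168 and 49.7% of all genes tested. For 19 of the 168 the next tested gene on the same chromosome, by identifier, was in the group too. The genes lay on all 17 chromosomes listed.

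The 50 genes higher in MeJA replicate 2 included genes that also differed between the replicates of the other groups. Potri.013G139900, on chromosome 13, had 154 and 2203 FPKM in MeJA cuttings, against 217 and 994 FPKM in untreated cuttings. At 0.5 h it had 1936 and 104 FPKM in MeJA cuttings, against 171 and 541 FPKM in untreated cuttings. Each of the 4 groups thus held a low and a high library, and the high one was replicate 1 in MeJA 0.5 h and replicate 2 in the other 3 groups.

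Potri.011G074100, on chromosome 11, had 88 and 1253 FPKM in MeJA cuttings, against 130 and 570 FPKM in untreated cuttings. At 0.5 h it had 1147 and 66.8 FPKM in MeJA cuttings, against 95.7 and 304 FPKM in untreated cuttings. The order of low and high libraries was that of Potri.013G139900 in each group. Their group differences at 1 h were log2 0.33 ± 2.1 and 0.29 ± 2.1 (SE), with limma adjusted p = 0.993 for both.

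Across the 50 genes, 36 (72%) were higher in untreated 1 h replicate 2 than in replicate 1, against 43.5% of all genes tested, and 16 of the 50 had reached the minimum only with an untreated library. In MeJA 0.5 h 39 (78%) were higher in replicate 1, against 51.4%, and in untreated 0.5 h 38 (76%) were higher in replicate 2, against 48.6%. Their part of the summed FPKM was 0.212% and 2.31% in MeJA cuttings, against 0.279% and 0.909% in untreated cuttings. Chromosomes 5, 11 and 13 held 25 of the 50, and 15.7% of all genes tested. They were picked after the counts per chromosome were seen, so the choice itself favoured an excess. Chromosome 2 held 5 of the 50, as many as chromosome 11, and 7.77% of all genes tested. Of the 10 that passed 100 FPKM in MeJA replicate 2, 8 were on chromosomes 5, 11 and 13. Whether near-identical copies shared reads among them was not resolved.

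**Figure D4:**
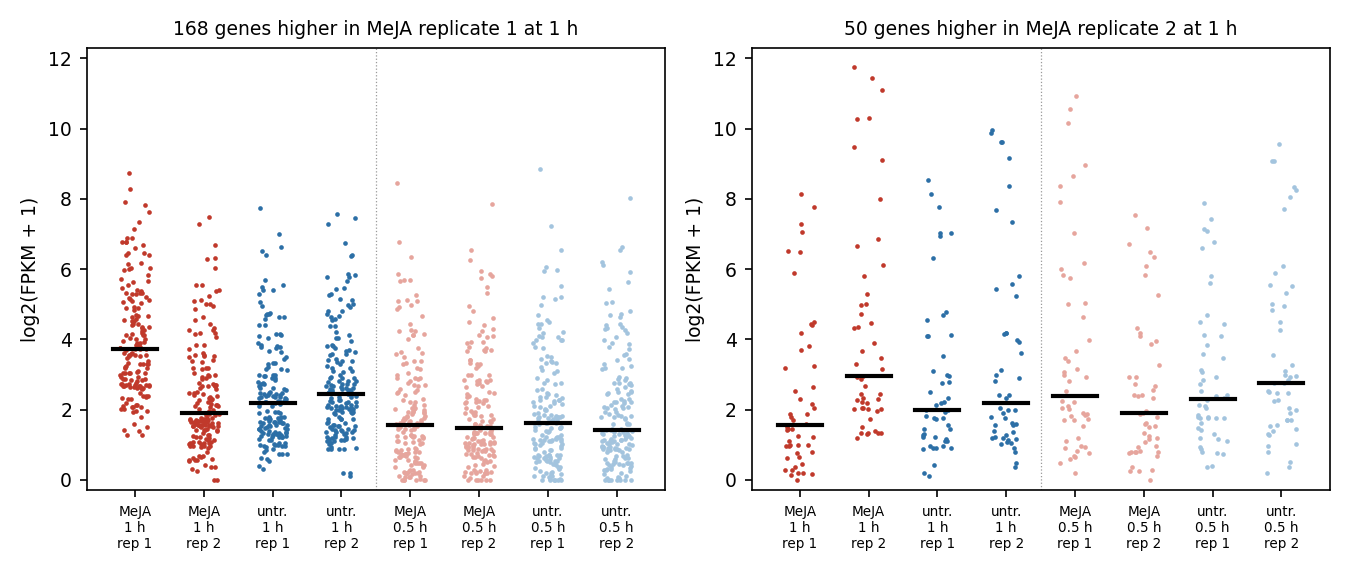
Levels in log2(FPKM + 1) of the 168 genes higher in MeJA replicate 1 (left) and the 50 genes higher in MeJA replicate 2 (right), 1 point per gene and library, with bars at the medians. On the left MeJA 1 h replicate 1 stands alone at a median of 3.74, and on the right the uppermost points stand higher in replicate 2 than in replicate 1 of every group except MeJA 0.5 h, where replicate 1 is the higher.

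The calls were then counted with each library left out. Without MeJA replicate 2, 137 genes (0.594%) were called by limma from MeJA replicate 1 alone, 129 of them higher. Relative to untreated cuttings, the median of the higher ones was log2 1.29 in MeJA replicate 1 and 0.09 in MeJA replicate 2. Over all genes tested these medians were 0.022 and 0.0069, so a gene lay above the untreated mean in MeJA replicate 2 about as often as not. Of the higher ones, 76 lay above the untreated mean in MeJA replicate 2, and 84 belonged to the 168 genes above. Without MeJA replicate 1, 10 genes (0.0434%) were called, 9 of them higher. The 9 had a median log2 difference of 0.76 in MeJA replicate 1 and 1.76 in MeJA replicate 2, and all lay above the untreated mean in both. Of the genes called in these fits, which share the untreated libraries, 3 were called in both. Leaving out either untreated library gave no call (0), with 1566 and 1309 genes at an unadjusted p under 0.05.

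Group means differed by at least 1 on the log2 scale for 40 genes higher with MeJA (0.173%) and for 1 gene lower (0.00434%), Potri.001G076300. Of the 40, 25 belonged to the 168 genes of MeJA replicate 1. In 26 of the 40 both MeJA libraries lay above both untreated libraries, against 20.3% of all genes tested. A large difference of means by itself favours groups that do not overlap. Of the 4 genes described first, Potri.010G200500 and Potri.013G154700 were called without MeJA replicate 2 (limma adjusted p = 0.025 and 0.0165), while leaving out another library gave limma adjusted p up to 0.849 and 0.674. Their log2 differences then lay between 0.68 and 0.75 and between 0.79 and 1.09.

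The change of the MeJA difference between 0.5 h and 1 h passed for no gene (0%, 0 of 23060) in limma on all 8 libraries. Of these genes 2168 (9.4%) had an unadjusted p under 0.05, with the difference more positive at 1 h for 1358 (5.89%) and more negative for 810 (3.51%). The balance was 50.3% more positive after quantile normalization, against 62.6% as deposited.

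Transcripts tested in place of genes gave the same count. No transcript (0%, 0 of 43176) passed in limma, an unadjusted p under 0.05 was found for 2753 (6.38%), with MeJA above untreated in 1707 (3.95%) and below in 1046 (2.42%), and the lowest adjusted p was 0.12. Isoform 12 of Potri.005G078700, on chromosome 5, had 4.6 and 3.62 FPKM in MeJA cuttings, against 0.665 and 0.855 FPKM in untreated cuttings (log2 difference 1.53 ± 0.15 SE, limma adjusted p = 0.12). At 0.5 h the isoform had 5.55 and 4.8 FPKM in MeJA cuttings, against 2.94 and 6.15 FPKM in untreated cuttings. Isoform 2 of Potri.017G103900, on chromosome 17, had 1.74 and 1.47 FPKM in MeJA cuttings, against 3.89 and 3.86 FPKM in untreated cuttings (log2 difference -0.91 ± 0.13 SE, limma adjusted p = 0.213). Its levels at 0.5 h were 4.74 and 1.48 FPKM in MeJA cuttings, against 0.909 and 2.97 FPKM in untreated cuttings. Without MeJA replicate 2, 233 transcripts (0.54%) were called, and without MeJA replicate 1, 37 (0.0857%).

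Isoform shares, the part of a gene's FPKM assigned to each of its transcripts, were tested at 1 h alone. The test covered 27018 isoforms of 8433 genes, where the gene averaged 5 FPKM or more and the isoform 10% to 90% of it. No share (0%) passed in limma on log2 odds, an unadjusted p under 0.05 was found for 1312 (4.86%), with MeJA above untreated in 646 (2.39%) and below in 666 (2.47%), and the lowest adjusted p was 0.984. Groups did not overlap for 32.9% of isoforms, and with 2 libraries per group many separate in this way by order alone. The median absolute difference between group means was 1.26 percentage points, and the median difference between replicates was 1.79 points in MeJA cuttings and 1.81 points in untreated cuttings. Of the isoforms tested, 1 differed by 20 points or more between groups, and its groups overlapped, while 7 did so between the MeJA replicates and 11 between the untreated replicates. A group mean varies less than a single library. Differences between group means are therefore expected to be smaller than those between replicates even without an effect of MeJA, and the values cannot be compared directly.

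The most abundant isoform of a gene was the same in all 4 libraries for 6045 of 8469 genes (71.4%). It differed between MeJA and untreated cuttings, with both replicates alike, for 179 genes (2.11%). It differed between the MeJA replicates for 1445 genes and between the untreated replicates for 1467. The 179 also had to agree within each group, a stricter condition, so the counts are not alike in definition.

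The isoform shares with the smallest p among those whose groups did not overlap, 2 in each direction and of different genes, belonged to isoforms of low level. These isoforms lay between 0.695 and 3.71 FPKM in the libraries of 1 h. Isoform 14 of Potri.007G131300, on chromosome 7, made up 7.1% and 7.75% of the gene in MeJA cuttings, against 23.5% and 28.8% in untreated cuttings. The gene itself was level, at 13 and 12.4 FPKM in MeJA cuttings, against 12.4 and 12.9 FPKM in untreated cuttings. The log2 odds differed by -1.71 ± 0.15 (SE; limma adjusted p = 0.984). At 0.5 h the share was 5.82% and 8.81% in MeJA cuttings, against 7.27% and 3.75% in untreated cuttings, so the untreated libraries of 1 h stood apart from the other 6.

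Isoform 2 of Potri.002G068800, on chromosome 2, made up 13.5% and 11.8% of the gene in MeJA cuttings, against 23.3% and 22.9% in untreated cuttings (limma adjusted p = 0.984). At 0.5 h its share was 22.4% and 12.4% in MeJA cuttings, against 19.5% and 14.2% in untreated cuttings, so that the replicates of MeJA 0.5 h were about as far apart as the groups of 1 h. Isoform 3 of Potri.016G003800, on chromosome 16, made up 41.9% and 40.8% in MeJA cuttings, against 28.3% and 26.9% in untreated cuttings (limma adjusted p = 0.984), and at 0.5 h 32.5% and 33.7% in MeJA cuttings, against 37.1% and 33.3% in untreated cuttings. Isoform 2 of Potri.004G207400, on chromosome 4, made up 32.2% and 29.8% in MeJA cuttings, against 15.9% and 18.8% in untreated cuttings (limma adjusted p = 0.984). Its shares at 0.5 h ran the other way, at 24.1% and 25.6% in MeJA cuttings, against 28.9% and 35.4% in untreated cuttings. In all 4 the groups did not overlap at 1 h, as the choice required, and none passed.

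Leaving out each library in turn left the isoform count at 0 with one exception. Without untreated replicate 1, isoforms 11 and 12 of Potri.010G072200, on chromosome 10, were called (2 shares, 0.0074%; limma adjusted p = 0.0301 for both), and as transcripts they were called too (2 transcripts, 0.00463%; limma adjusted p = 0.00479 and 0.000671). This pair was singled out after its values were seen. Isoform 12 had 626 and 608 FPKM in MeJA cuttings, against 516 and 61.2 FPKM in untreated cuttings. Isoform 11 had 79.8 and 69.4 FPKM in MeJA cuttings, against 67.8 and 480 FPKM in untreated cuttings. Untreated replicate 2 therefore had the levels of the isoforms exchanged.

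The exchange recurred at 0.5 h in MeJA replicate 2, with 455 FPKM for isoform 11 and 65.9 FPKM for isoform 12, and in none of the other 3 libraries of that time. Summed over both isoforms the levels were 706 and 678 FPKM in MeJA cuttings, against 584 and 541 FPKM in untreated cuttings of 1 h. The gene has 14 isoforms listed. The shares are estimates by the authors' software, and how reads common to both isoforms were assigned was not tested.

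**Figure D5:**
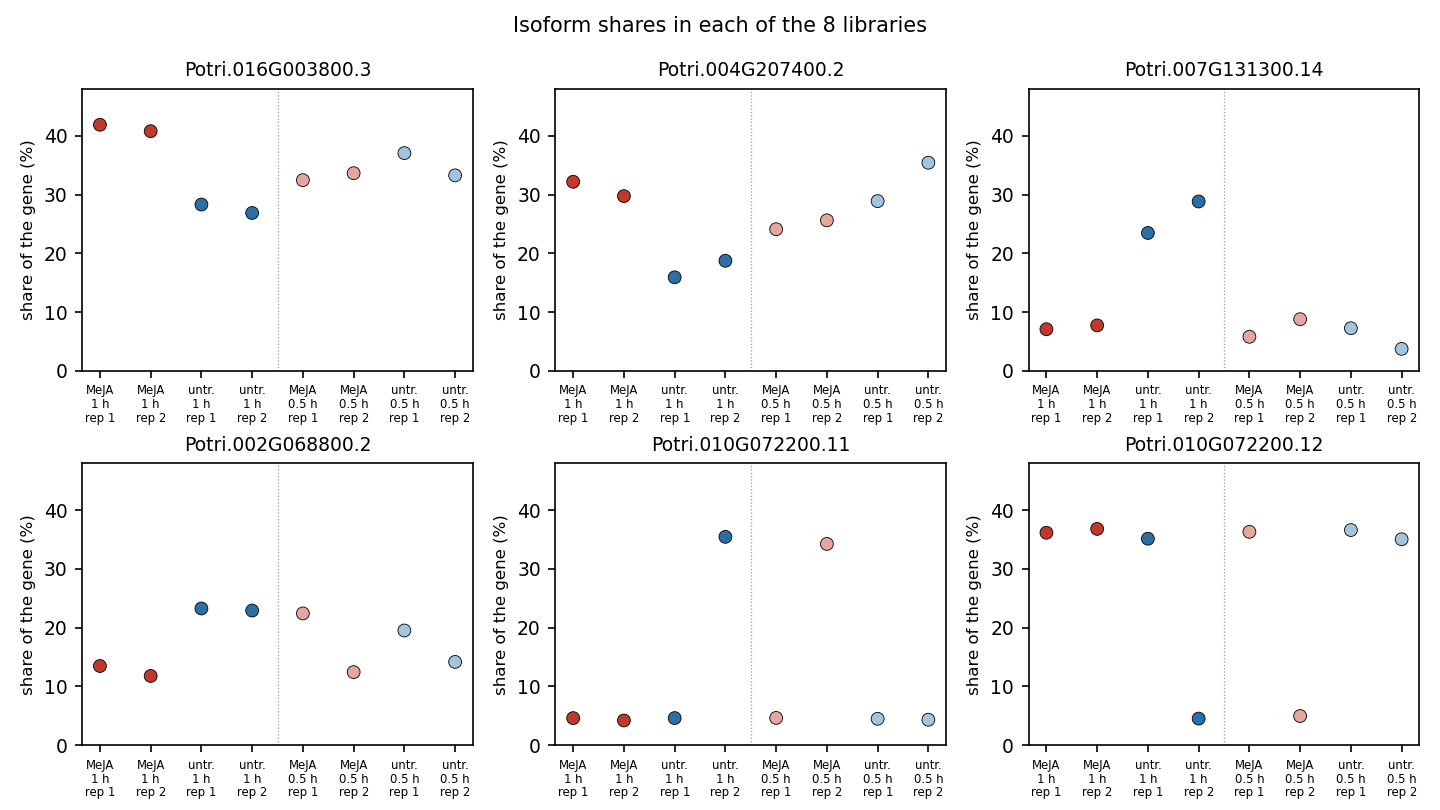
Share of each isoform in the FPKM of its gene (%), 1 point per library, with MeJA in red and untreated in blue, and 0.5 h right of the dotted line in paler colours. The first 4 panels separate the groups at 1 h, as the choice required. The last 2 show isoforms 11 and 12 of Potri.010G072200 exchanging levels near 4.5% and 35% in untreated 1 h replicate 2 and MeJA 0.5 h replicate 2.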

How the data were processed

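The authors deposited 1 table per library with a value per transcript. The unit is stated neither in the file headers nor in the labels, and the values deposited by the authors were taken to be FPKM because they are fractional and reach beyond any log scale. They total 559396 to 566236 per library of 1 h, in lists that end within chromosome 17, so the totals do not tell FPKM from TPM. The submitters' processing notes name HISAT2 2.1.0 and Bowtie2 2.2.3. What each tool did, how values were quantified, and the annotation and build were not given in the sources used. Transcripts were summed to genes by dropping the isoform number, and genes with at least 1 FPKM in 2 of the 4 libraries were kept. log2(FPKM + 1) was fitted in limma 3.58.1 (R 4.3.3) to the 4 libraries of 1 h, with a variance trend, robust moderation and Benjamini-Hochberg adjustment over all features tested, at 0.05. Isoform shares were fitted as log2 odds with 0.5 added to the isoform and to the rest of its gene. The change of the MeJA difference between the times was fitted on all 8 libraries. The procedure was tested on simulated data. Groups and replicate numbers came from the sample labels, which give no harvest, extraction or sequencing batch. The text names the 2 genes per direction of smallest p that average 5 FPKM or more and whose groups do not overlap, and likewise 2 isoform shares of different genes. Named transcripts are taken from the 2 of smallest p per direction. Other named features were singled out after their values were seen. Genes, groups of genes and tests were chosen with earlier results of these data known. Read counts were not used, so no count test was run and no counting intervals are given. Gene lists set by description (such as those for hormones and for cell types) were not run, because the files do not pair identifiers with descriptions.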

Additional observations from a re-analysis of the deposited data

How the results depend on the processing

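The counts of 0 genes, 0 transcripts and 0 isoform shares called for MeJA at 1 h were unchanged with a pseudocount of 0.1, other filters on level or share, quantile normalization or median centring (genes and transcripts), plain moderation, and a fit of all 8 libraries. Leaving out each library gave 0 to 137 genes, 0 to 233 transcripts, 0 to 2 isoform shares and 0 to 9 genes for the change of the MeJA difference between times, where only libraries of 1 h were left out. In these fits the lone library of a group is assumed to vary like the other group. The number of genes that differed by at least 1 on the log2 scale between MeJA libraries was 543 with a pseudocount of 0.1 and 115 at a mean of at least 5 FPKM, and between untreated libraries it was 353 and 21. These settings were added after seeing the data. Replicate numbers recur in both groups without a stated meaning, and the differences between replicates 1 and 2 of the groups had a correlation of -0.071 across genes, so the numbers were not taken as pairs. With the replicate block 0 genes, 0 transcripts and 0 isoform shares were called, and 0 genes for the change between times. The named genes stayed uncalled in 46 of 48 tries, and the named isoform shares in 38 of 38. No sign reversed, but a named gene cannot reverse with a library left out, since its groups were chosen not to overlap. The named isoform shares were chosen in the same way. Dropping the filter, raising it, fitting all 8 libraries, plain moderation and the replicate block leave the difference of a gene unchanged by construction. The signs thus say little about stability. The count tests planned for files of read counts were not run. Limits set by sequencing depth were not measured, as absolute depth is unknown.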

Other observations

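Genes with an unadjusted p under 0.05 were spread over the 17 chromosomes listed, from 5.38% of the 910 genes tested on chromosome 15 to 9% of the 1133 on chromosome 9. Without MeJA 1 h replicate 1, Potri.006G218200 and Potri.008G158000 were called for the change of the MeJA difference between 0.5 h and 1 h (limma adjusted p = 0.0473 for both). Potri.006G218200, on chromosome 6, had 14.9 and 27.6 FPKM in MeJA cuttings of 1 h, against 12.5 and 13.4 FPKM in untreated cuttings of 1 h. At 0.5 h it had 25.9 and 23.5 FPKM in MeJA cuttings, against 38.5 and 42.3 FPKM in untreated cuttings. Potri.008G158000, on chromosome 8, had 13.7 and 23.5 FPKM in MeJA cuttings of 1 h, against 9.75 and 10.9 FPKM in untreated cuttings of 1 h. At 0.5 h it had 17.9 and 17.3 FPKM in MeJA cuttings, against 26.2 and 24.7 FPKM in untreated cuttings. In both genes MeJA libraries lay above untreated libraries at 1 h and below them at 0.5 h. These genes were singled out after their values were seen.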
